A study of Mus musculus with 58 samples.

Results

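The retinas of diabetic and control mice taken 1 h after lights on, at zeitgeber time 1 (ZT1), were compared across all genes. The comparison held every library labelled ZT1, 5 from control and 5 from diabetic mice, out of 58 libraries from 6 times of the light/dark cycle. Control mice carried the genotype label C57/BL/6 and were wild-type littermates. Diabetic mice were labelled C57BL/6-Ins2Akita/J and were heterozygous for the Akita allele, a point mutation of the insulin gene Ins2 under its own promoter that makes the protein misfold in the beta cells of the pancreas. All were males of 4 months, kept under 12 h of light and 12 h of darkness, and none received a drug. Eyes were taken after perfusion with cold phosphate-buffered saline, each library was made from the total RNA of 1 retina sample after removal of ribosomal RNA, and reads were counted per gene. Libraries are named here by genotype and replicate number, 1, 2, 3, 4 and 6 for control and 1 to 5 for diabetic, and values of 5 libraries are given in that order.

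The Akita mouse is a model of type 1 diabetes in which beta cells are lost and blood glucose is high from early life. The retina is one of the tissues with the highest demand for glucose, much of which photoreceptors turn into lactate by aerobic glycolysis, and photoreceptors renew their outer segments daily, with shedding timed to the start of the light phase. Photoreceptor discs are built from membrane proteins made in the endoplasmic reticulum (ER), so the chaperones that fold proteins there are part of the normal work of these cells.

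The 10 libraries held between 10223817 reads (diabetic 2) and 19441932 reads (diabetic 4) in genes, against 7773117 to 22147398 over all 58. Of the symbols in the table, 19120 were tested. Sag, the rod arrestin, which marks the tissue as retina, lay between 2180.1 and 3217 CPM (counts scaled by the TMM method to a common library total) in every library. Ins2 had 1, 0, 0, 0 and 1 reads in the control and 3, 1, 1, 0 and 0 in the diabetic libraries, was too low to be tested, and could not check the genotype, which is a change of 1 base and not of level. Several libraries stood apart. Control 6 carried lens RNA, with a summed level of lens markers of 3811 CPM against 18.9 to 50.5 CPM in the other control libraries, and diabetic 3 held 102 CPM against 21.5 to 33.8 CPM in the other diabetic libraries. Diabetic 5 had the highest values of several of the leading higher genes below. Markers of blood (48.7 to 64.8 CPM in control, 49.6 to 63.8 CPM in diabetic libraries) and of microglia and complement (55.6 to 69.2 and 55.6 to 61.1 CPM) overlapped between the groups, as did those of cornea, iris and ciliary body (33.1 to 69.9 and 44.5 to 66.2 CPM) and of retinal pigment epithelium (283 to 443 and 280 to 355 CPM). In whole retina, fewer cells of a type and less RNA per cell cannot be told apart.

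Few genes differed at ZT1. By edgeR's quasi-likelihood test with Benjamini-Hochberg adjustment, 2 of 19120 genes (0.0105%) passed an adjusted p of 0.05. These were Ube2t, which rose (1 gene higher, 0.00523%), and Fam160a1, which fell (1 gene lower, 0.00523%). At an unadjusted p under 0.05, 588 genes were higher (3.08%) and 463 lower (2.42%) in diabetic retinas, together 5.5% of those tested, where 5% would pass if the p-values were spread evenly. The log2 fold change (diabetic over control) had a median of 0.0072 over all genes, was above 0 for 52.6% and below 0 for 47.4%, and lay within 0.2 of 0 for 78.1% and within 0.5 for 95.3% of them, with a median standard error (SE) of 0.13. The direction varied with abundance. Among the 2161 genes over 100 CPM, 5.09% were lower and 0.416% higher at the unadjusted threshold and 62.9% had a log2 fold change below 0, whereas among the 5694 genes of 1 to 10 CPM 1.65% were lower and 4.6% higher. These shares are the background against which the groups of genes below are read.

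**Figure D1:**
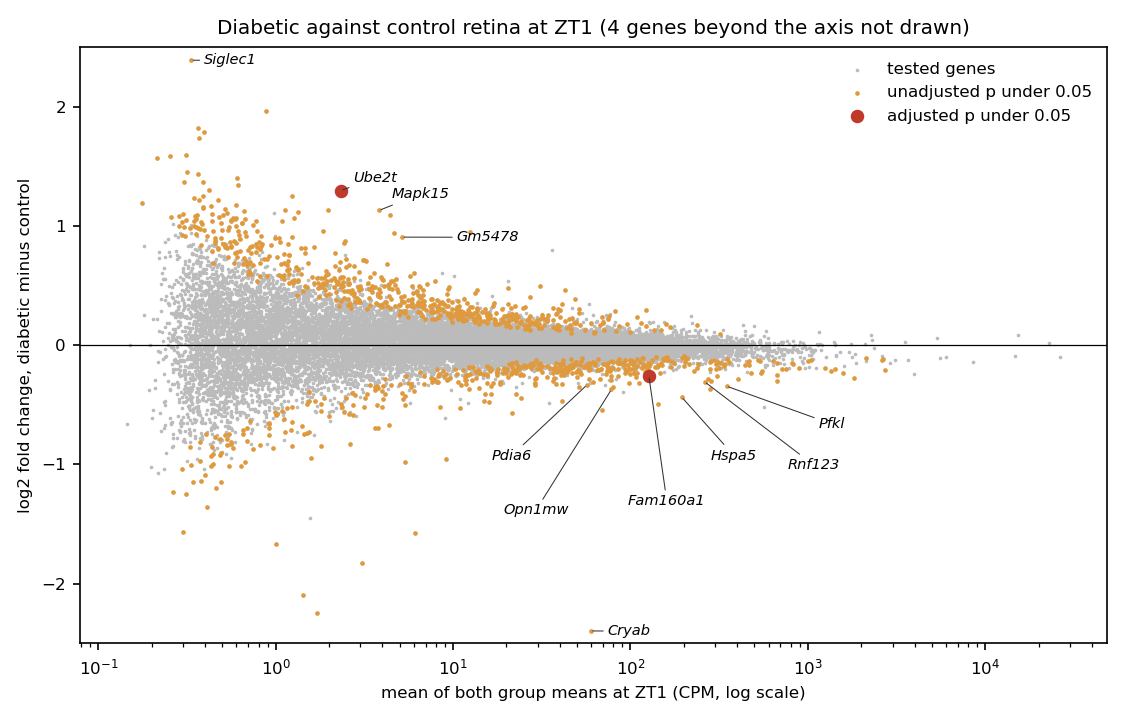
Log2 fold change of diabetic over control retina at ZT1 (vertical axis) against mean level in CPM on a log axis (horizontal axis), 1 point per gene tested. Most points lie within 0.5 of 0, the 2 genes past the adjusted threshold are Ube2t above and Fam160a1 below, and among the genes over 100 CPM points below 0 outnumber those above.

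Ube2t encodes the ubiquitin-conjugating enzyme of the Fanconi anaemia pathway, which acts in the repair of DNA crosslinks. It lies at chr1:134962565-134974162 on the plus strand (GRCm38). Its level was 1.08, 1.14, 1.51, 1.16 and 1.79 CPM in the control and 3.26, 3.75, 3.03, 3.20 and 3.34 CPM in the diabetic libraries, from 14 to 34 and 38 to 63 reads. Every diabetic library was above every control library, and both groups were tight (1.33 ± 0.304 and 3.32 ± 0.267 CPM, SD, n = 5). Ube2t rose by 1.30 on the log2 scale (SE 0.23, 95% confidence interval 0.84 to 1.75, adjusted p = 0.0104 by edgeR's quasi-likelihood test), a fold of 2.46. At the other 5 times its log2 fold change was 0.56 (ZT5), 0.53 (ZT9), 0.49 (ZT13), 0.86 (ZT17) and 0.94 (ZT21), with a mean of 0.68 (adjusted p = 2.71e-05). The call was lost when only the 10 ZT1 libraries were fitted (adjusted p = 0.0807), without control 1 (0.0901) and without control 2 (0.0783), with a fold change of at least 1.23 on the log2 scale in each, and DESeq2 gave an adjusted p of 0.000318.

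Fam160a1, a member of the FHIP family of proteins that link vesicles to dynein, spans chr3:85660061-85817291 on the minus strand and overlaps the gene model Gm37240 on the same strand. It was at 138, 138, 137, 147 and 132 CPM in the control and 104, 118, 118, 121 and 117 CPM in the diabetic libraries. Again the groups did not overlap, and diabetic 1 was the lowest of its group. Fam160a1 fell by 0.26 on the log2 scale (SE 0.049, 95% confidence interval -0.36 to -0.16, adjusted p = 0.0277, edgeR), from 138.3 ± 5.46 to 115.6 ± 6.58 CPM (SD, n = 5). Its difference was also below 0 at the other times, between -0.06 and -0.28 (mean -0.16, adjusted p = 3.9e-06). The call was lost in the ZT1 libraries alone (adjusted p = 0.328), without a filter on low counts (0.186), and without any 1 of control 1, 2, 3 or 4 or diabetic 1 or 5 (0.0701 to 0.115).

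**Figure D2:**
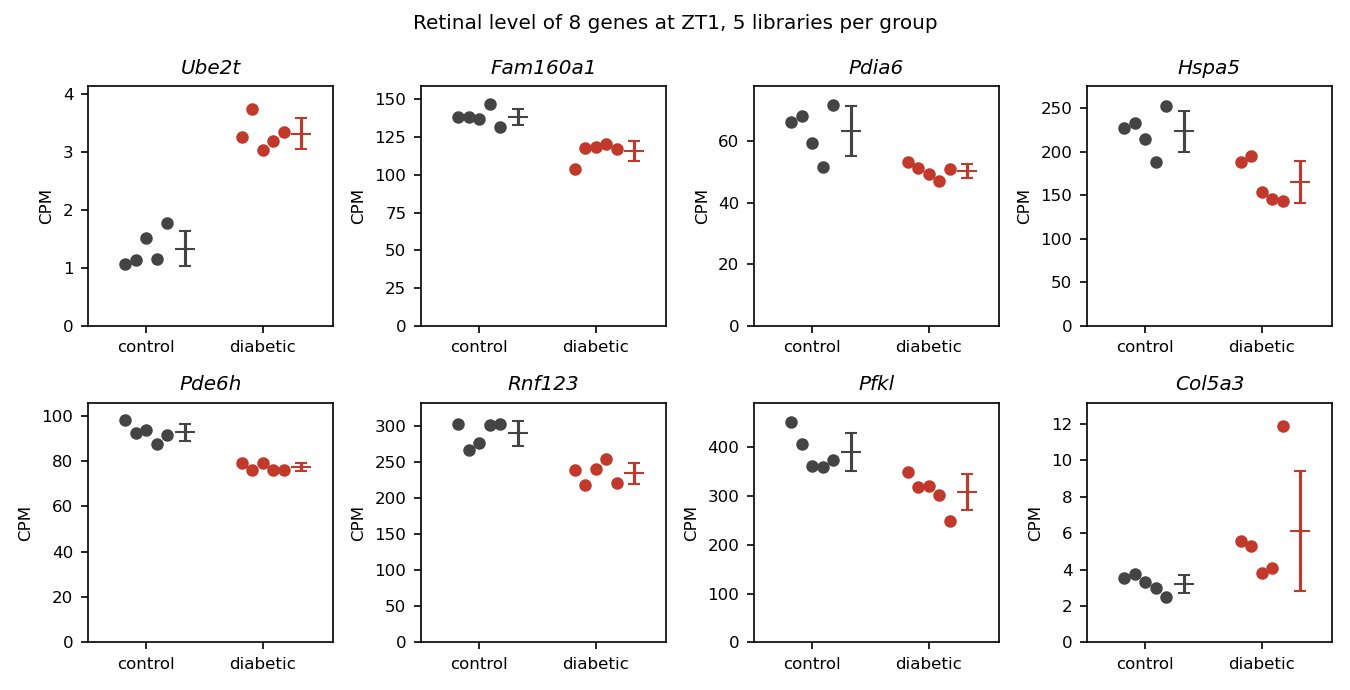
Level in CPM (vertical axis, from 0, 1 panel per gene) of 8 of the leading genes at ZT1 in the 5 control and 5 diabetic libraries, each a point, with the mean and the SD as a bar. For Ube2t every diabetic library lies above every control library, and for Fam160a1, Pde6h, Rnf123 and Pfkl every diabetic library lies below, while 1 diabetic library stands far above the rest for Col5a3.

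The next genes in order of p did not pass the adjusted threshold of edgeR's test, and their values are given as a description. Among them DESeq2 called Gm5478, Mapk15, Pdia6 and Pde6h. On the higher side, Mapk15, an atypical MAP kinase with roles in cilia and autophagy, was at 2.69, 2.06, 1.59, 2.71 and 2.94 CPM in control and 3.48, 4.42, 4.79, 4.97 and 8.61 CPM in diabetic libraries (log2 fold change 1.13, SE 0.24, adjusted p = 0.0865 by edgeR). The groups did not overlap, and without diabetic 5, the highest, the log2 fold change was 0.87. Acot1, an acyl-CoA thioesterase whose gene is a target of PPAR alpha, was at 0.77, 0.759, 0.556, 0.838 and 1.10 CPM in control and 1.48, 1.92, 1.75, 1.62 and 1.86 CPM in diabetic libraries, without overlap (log2 fold change 1.07, SE 0.25, adjusted p = 0.18). Acot1 has a close paralog, Acot2, and how reads that match both were counted is not given in the sources used here. Its mean log2 fold change at the other times was 0.26.

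Diabetic 5 weighed on several genes of this group. Col5a3, a chain of type V collagen, was at 3.54, 3.74, 3.34, 2.96 and 2.47 CPM in control and 5.56, 5.28, 3.83, 4.11 and 11.9 CPM in diabetic libraries (log2 fold change 0.94, SE 0.22, adjusted p = 0.168), and without diabetic 5 its log2 fold change was 0.54. Both groups still stood apart, and at the other times Col5a3 was higher too, by 0.58 (adjusted p = 0.000218). Ccdc187 reached 13.7 CPM in diabetic 5 against 2.82 to 4.79 CPM in the other diabetic libraries, and its log2 fold change of 1.09 was 0.50 without that library. Gm5478 (0.91 and 0.59) and Dnah2, an axonemal dynein heavy chain (0.86 and 0.53), behaved alike, and in each of these 3 genes the groups overlapped. Slc37a1, an ER transporter of glucose 6-phosphate and phosphate (0.90), Gm37795 (1.79) and Siglec1, the macrophage receptor sialoadhesin (2.39), were below 2 CPM in every library and overlapped between the groups.

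On the lower side, Pdia6, a protein disulfide isomerase of the ER, was at 66.2, 68.1, 59.2, 51.4 and 71.7 CPM in control and 53.3, 51.1, 49.2, 47.0 and 51.0 CPM in diabetic libraries. Control 4 overlapped the diabetic group (log2 fold change -0.33, SE 0.075, adjusted p = 0.168, edgeR), and without it the adjusted threshold was passed (-0.40). At the other times Pdia6 was at -0.02 (ZT5), 0.04 (ZT9), -0.22 (ZT13), -0.46 (ZT17) and -0.29 (ZT21). The mean of these times was -0.19 (adjusted p = 0.00034, edgeR). The gene lies opposite Atp6v1c2, and without knowledge of the strand setting reads of the 2 genes cannot be told apart.

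Pde6h, the inhibitory subunit of the cone phosphodiesterase, was at 98.1, 92.3, 93.9, 87.6 and 91.5 CPM in control and 79.1, 76.2, 79.2, 75.8 and 75.9 CPM in diabetic libraries. The groups did not overlap and each was narrow (log2 fold change -0.26, SE 0.06, adjusted p = 0.168). Part of the gene lies opposite Arhgdib. Rnf123, the ubiquitin ligase KPC1, was at 302, 267, 277, 301 and 303 CPM in control and 239, 218, 240.0, 254 and 220.5 CPM in diabetic libraries (log2 fold change -0.31, SE 0.072, adjusted p = 0.177). This difference was steady through the cycle, at -0.31 (ZT5), -0.29 (ZT9), -0.31 (ZT13), -0.40 (ZT17) and -0.34 (ZT21), with a mean of -0.33 (adjusted p = 6.46e-10). Rnf123 shares its locus with Gmppb, Amigo3 and Mst1 on the opposite strand. Further down the order stood Sgpp2, a sphingosine 1-phosphate phosphatase (-0.28), Wdr66 (-0.33), Clptm1l (-0.22) and Copz1, a subunit of the COPI coat of Golgi vesicles (-0.24). Of these, Sgpp2 and Wdr66 did not overlap between the groups.

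Among genes without overlap at an unadjusted p under 0.01, the largest folds were as follows. Higher were Serpine3 (log2 fold change 1.96), Gm2693 (1.59), Gm44008 (1.22) and Gm6981 (1.17), each at 2.3 CPM or less in every library, beside Ube2t. Lower were C230014O12Rik (-0.95), Samd12 (-0.45), the endothelial adhesion receptor Adgrl4 (-0.45) and the histone genes Hist1h2bb (-0.44) and Hist1h2bg (-0.41). Both H2B genes were also lower at the other times, by -0.42 (adjusted p = 0.000337) and -0.37 (adjusted p = 0.000675), though copies of this family are alike in sequence and reads may be split between them. Over all genes, 96 were higher (0.502%) and 82 lower (0.429%) without overlap between the groups.

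Genes for the folding of proteins in the ER stood lower in the diabetic retinas as a group, without any member past the adjusted threshold of edgeR's test, while DESeq2 called 1 member, Pdia6. Of 24 chaperones, folding enzymes and regulators of the unfolded protein response, 21 had a log2 fold change below 0, against 47.4% of all genes and 62.9% of those over 100 CPM. At the unadjusted threshold 13 were lower and 0 higher, against 2.42% and 3.08% of all genes. Their median log2 fold change was -0.18, beside 0.0072 over all genes, and -0.08 at the other times. Summed over the list, the level was 2576, 2670.4, 2477, 2325 and 2791 CPM in control and 2317, 2306, 2169, 2181 and 2121 CPM in diabetic libraries. The groups did not overlap, though control 4 and diabetic 1 nearly met, and leaving out 1 library at a time gave 10 to 15 members lower. Among the controls the sum was lowest in control 4 and highest in control 6, as were ribosomal proteins (4359 and 5753 CPM). Among the diabetic libraries the lowest were diabetic 5 for this list and diabetic 3 for ribosomal proteins. The part of RNA make-up in the lower ER levels was not tested.

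Hspa5 (BiP), the main chaperone of the ER lumen and the sensor that holds the stress receptors inactive, was at 227, 234, 215, 188 and 253 CPM in control and 189, 195, 154, 146 and 144 CPM in diabetic libraries (log2 fold change -0.44, SE 0.11, unadjusted p = 0.000229, adjusted p = 0.312 by edgeR). The overlap lay between control 4 and diabetic 1 and 2. At the other times its log2 fold change was 0.03 (ZT5), 0.04 (ZT9), -0.23 (ZT13), -0.45 (ZT17) and -0.12 (ZT21). Xbp1, the transcription factor that is spliced by IRE1 and drives chaperone genes, was at 70.1, 67.3, 63.8, 64.6 and 72.1 CPM in control and 56.5, 61.3, 51.1, 53.6 and 51.1 CPM in diabetic libraries, without overlap (log2 fold change -0.31). Its values at the other times were 0.17, 0.02, -0.14, -0.36 and -0.09. Calr (calreticulin, a lectin chaperone that binds calcium) was at 287, 318, 273, 316 and 384 CPM in control and 242, 238, 226, 285 and 233 CPM in diabetic libraries, where diabetic 4 lay inside the control range (log2 fold change -0.36).

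Creld2, a disulfide isomerase made under ER stress, was at 18.4, 19.0, 17.7, 15.1 and 21.1 CPM in control and 14.7, 15.4, 14.7, 14.2 and 13.4 CPM in diabetic libraries (log2 fold change -0.34). Its values at the other times were 0.10 (ZT5), -0.09 (ZT9), -0.19 (ZT13), -0.56 (ZT17) and -0.15 (ZT21). Manf, a secreted neurotrophic factor kept in the ER (-0.29), and Dnajb11, a co-chaperone of Hspa5 (-0.19), were without overlap. The other members lower at the unadjusted threshold included the disulfide isomerases Pdia3 (-0.32) and P4hb (-0.17), the ER form of Hsp90, Hsp90b1 (-0.30), Sdf2l1 (-0.43), Hyou1 (-0.20) and Dnajc3 (-0.14). In the arm of the response that runs through translation, Atf4 stood at 0.16 (SE 0.13) and Ddit3 (CHOP) at 0.02 (SE 0.096), and of 24 genes tested on the list of ATF4 targets 1 was higher and 1 lower.

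**Figure D3:**
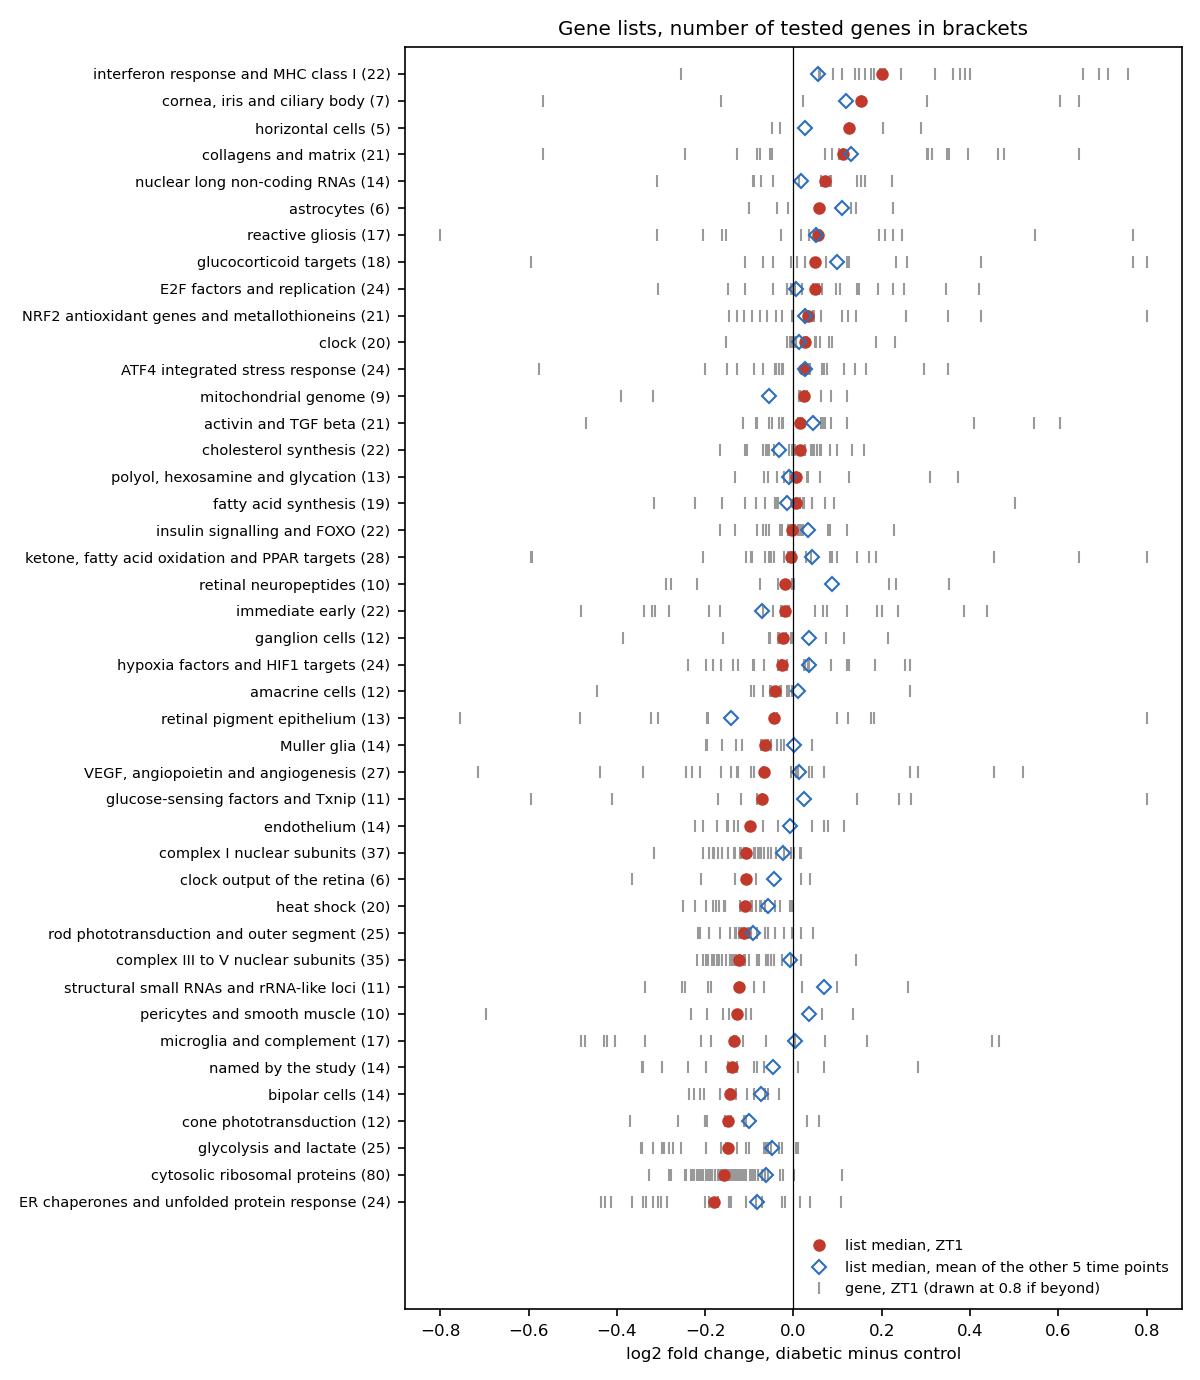
Median log2 fold change of diabetic over control retina (horizontal axis) for each list of at least 5 tested genes (vertical axis), with red marks for ZT1 and blue diamonds for the mean of the other 5 times, and grey ticks for the members at ZT1. The lens list is left out, and the list of ER chaperones has the lowest red mark of those drawn, at -0.18.

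Promoters of these ER genes are shown because part of the list, 10 of the 21 promoters searched, holds a known regulatory sequence. The ER stress response element (ERSE) reads CCAAT, then 9 bases of any kind, then CCACG, and ERSE-II reads ATTGG, then 1 base of any kind, then CCACG, so that they share the last 5 letters. Both are bound by ATF6 and XBP1 together with general CCAAT factors. Both strands of the 250 bases before each RefSeq start (GRCm38.p6) were searched. Of 24 genes 21 matched a promoter, and 10 of them (47.6%) held a match, against 45 of 27025 genes (0.167%) overall. The matches, in capitals, ended 46 bases before the start in Hspa5, 79 in Pdia6 and 107 in Creld2, where it lies on the other strand, and 41 in Herpud1, whose match is ERSE-II. Sequences are from RefSeq and are all on the plus strand, at chr2:34771840-34772089, chr12:17266339-17266588, chr15:88819396-88819645 and chr8:94386179-94386428.
Hspa5: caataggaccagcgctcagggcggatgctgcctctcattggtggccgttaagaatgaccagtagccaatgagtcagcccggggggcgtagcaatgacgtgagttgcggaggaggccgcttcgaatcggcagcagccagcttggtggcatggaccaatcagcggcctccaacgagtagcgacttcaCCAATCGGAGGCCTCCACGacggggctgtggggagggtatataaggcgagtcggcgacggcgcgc
Pdia6: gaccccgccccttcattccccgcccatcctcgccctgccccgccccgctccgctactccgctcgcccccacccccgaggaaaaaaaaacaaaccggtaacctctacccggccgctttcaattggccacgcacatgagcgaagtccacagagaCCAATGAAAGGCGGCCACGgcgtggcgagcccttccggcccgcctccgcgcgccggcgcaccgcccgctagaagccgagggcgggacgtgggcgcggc
Creld2: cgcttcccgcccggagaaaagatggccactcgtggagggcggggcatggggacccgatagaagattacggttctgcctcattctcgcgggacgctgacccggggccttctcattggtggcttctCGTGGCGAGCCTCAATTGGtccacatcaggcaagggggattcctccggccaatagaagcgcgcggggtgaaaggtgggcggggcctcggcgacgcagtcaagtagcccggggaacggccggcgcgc
Herpud1: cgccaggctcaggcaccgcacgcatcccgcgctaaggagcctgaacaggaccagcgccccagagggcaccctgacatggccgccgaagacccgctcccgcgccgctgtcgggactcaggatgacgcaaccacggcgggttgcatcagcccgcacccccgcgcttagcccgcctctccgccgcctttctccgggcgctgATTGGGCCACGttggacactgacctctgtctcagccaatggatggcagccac

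The 10 list genes with a match were Hspa5, Pdia6, Creld2, Hsp90b1, Calr, Canx, Dnajc3, Syvn1, Derl3 and Herpud1. All 10 had a log2 fold change below 0, 6 of them at the unadjusted threshold, and their median was -0.32 (-0.16 at the other times). The 11 list genes with a promoter and no match had a median of -0.15 (-0.07 at the other times), with 8 below 0 and 5 at the threshold. Herpud1, printed above, was at -0.03 (SE 0.095). Outside the list, 16 tested genes held a match, with a median of 0.067, 5 of them below 0 and 0 lower at the unadjusted threshold. Of these, Acacb (0.50) and Xlr3b (1.25) were higher at the unadjusted threshold. They were named after their values were seen. A match is a run of letters and not a test of binding.

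Photoreceptor and bipolar genes were also lower on balance, and again no member passed the adjusted threshold of edgeR's test, while DESeq2 called the cone gene Pde6h. Of 12 cone genes 10 were below 0 and 6 were lower at the unadjusted threshold, with 0 higher and a median of -0.15. Of all genes 47.4% were below 0 and 2.42% lower at that threshold. For genes over 100 CPM, as 7 of these 12 were, the shares were 62.9% and 5.09%. Opn1mw, the middle wavelength opsin, was at 90.5, 70.2, 91.3, 102 and 87.0 CPM in control and 61.0, 67.0, 66.2, 75.5 and 70.6 CPM in diabetic libraries (log2 fold change -0.37). Only control 2 fell within the diabetic range. Pde6c, the catalytic subunit of the cone phosphodiesterase, did not overlap (-0.20), as with its inhibitory subunit Pde6h. Gnat2 (cone transducin alpha, -0.20), Gnb3 (-0.15) and Thrb, the receptor that specifies this cone type (-0.11), were the others. The summed cone level was 1539, 1505, 1504, 1400.07 and 1474 CPM in control and 1399.95, 1344, 1356, 1347 and 1361 CPM in diabetic libraries, so that control 4 and diabetic 1 almost met.

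All 25 rod genes were over 100 CPM, where 62.9% of genes were below 0 and 5.09% lower at the unadjusted threshold. Of the 25, 23 were below 0, with a median of -0.11, but only 4 were lower at that threshold. These were Sag (rod arrestin, -0.21), Rom1 (a disc rim protein, -0.22), Grk1 (-0.12) and Pde6a (-0.11). The count was 1 without control 1, 2 without control 6 or diabetic 5, 7 without diabetic 2 and 9 without diabetic 1, and it was 7 by DESeq2 and 9 in the ZT1 libraries alone. All 14 bipolar genes were below 0, with a median of -0.14 and 6 lower at the unadjusted threshold, among them Grm6, the glutamate receptor of ON bipolar cells (-0.24), the calcium sensor Scgn (-0.23) and the kainate receptor Grik1 (-0.17). Grm6 was at 161, 164, 157, 164 and 148 CPM in control and 137, 142, 143, 144 and 108 CPM in diabetic libraries. The groups did not overlap, and diabetic 5 was far below its group (log2 fold change -0.17 without it). For the bipolar list the count was 2 without control 3 or diabetic 5. Most lists of other cell types leaned below 0 too, with fewer members at the threshold. Below 0 were 13 of 14 Muller (median -0.06), 11 of 12 amacrine (-0.04), 9 of 12 ganglion (-0.02) and 9 of 14 endothelial genes (-0.10). So were 8 of 10 pericyte (-0.13) and 12 of 17 microglial genes (-0.14). For horizontal cells it was 2 of 5 (0.13) and for astrocytes 3 of 6 (0.06). Each of these lists held 0 to 2 members lower at the unadjusted threshold.

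Glycolysis genes were lower on balance too. Of 25 genes for glucose uptake, glycolysis and lactate transport 23 were below 0. At the unadjusted threshold 11 were lower and 0 higher. Of the 25 genes 19 were over 100 CPM, a class in which 62.9% were below 0, 5.09% lower and 0.416% higher. The median of the list was -0.15, and -0.05 at the other times. Pfkl, the liver form of phosphofructokinase, was at 450.3, 405, 362, 359 and 373 CPM in control and 348, 318, 320.1, 302 and 248 CPM in diabetic libraries. The groups did not overlap (log2 fold change -0.34, SE 0.083, adjusted p = 0.225 by edgeR). Hk2, the hexokinase of photoreceptors, was at 882, 776, 749, 715 and 581 CPM in control and 601, 583, 612, 586 and 630.0 CPM in diabetic libraries (log2 fold change -0.30), and control 6 was the lowest of all 10. Ldha, lactate dehydrogenase A, was at 885, 799.9, 737, 687 and 727 CPM in control and 759.7, 705, 670.1, 632 and 576 CPM in diabetic libraries (-0.20), with overlap.

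Of the enzymes further down the pathway, those past the unadjusted threshold were Tpi1 at -0.28, Pgk1 at -0.32, Pgam1 at -0.29, Eno1 at -0.25 and Aldoa at -0.27. Pkm (-0.15, SE 0.11) and Gapdh (-0.15, SE 0.12), both abundant, did not pass it, and Ldhb was at 0.0052. The lactate carrier Slc16a3 (MCT4) was at -0.35 and its partner Bsg at -0.16. Slc2a1 (GLUT1), the main glucose carrier of the retina, was at -0.068. Leaving out 1 library at a time gave 8 to 11 members lower, and the ZT1 libraries alone gave 14. Of 14 genes that the study names in its account of metabolism, hypoxia and disease 6 were lower at the unadjusted threshold, namely Pfkl, Hk2, Ldha, Pdk1 (-0.24), Egln1 (-0.20) and Pfkp (-0.15). That list was chosen on these samples, and 4 of its 6 also stand on the glycolysis list, so it is not independent evidence of the direction. Of 24 hypoxia factors and HIF1 targets 14 were below 0 (median -0.025), and 3 were lower and 0 higher at the unadjusted threshold. Vegfa, the vascular growth factor under hypoxic control, was at 0.04 (95% confidence interval -0.13 to 0.20).

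**Figure D4:**
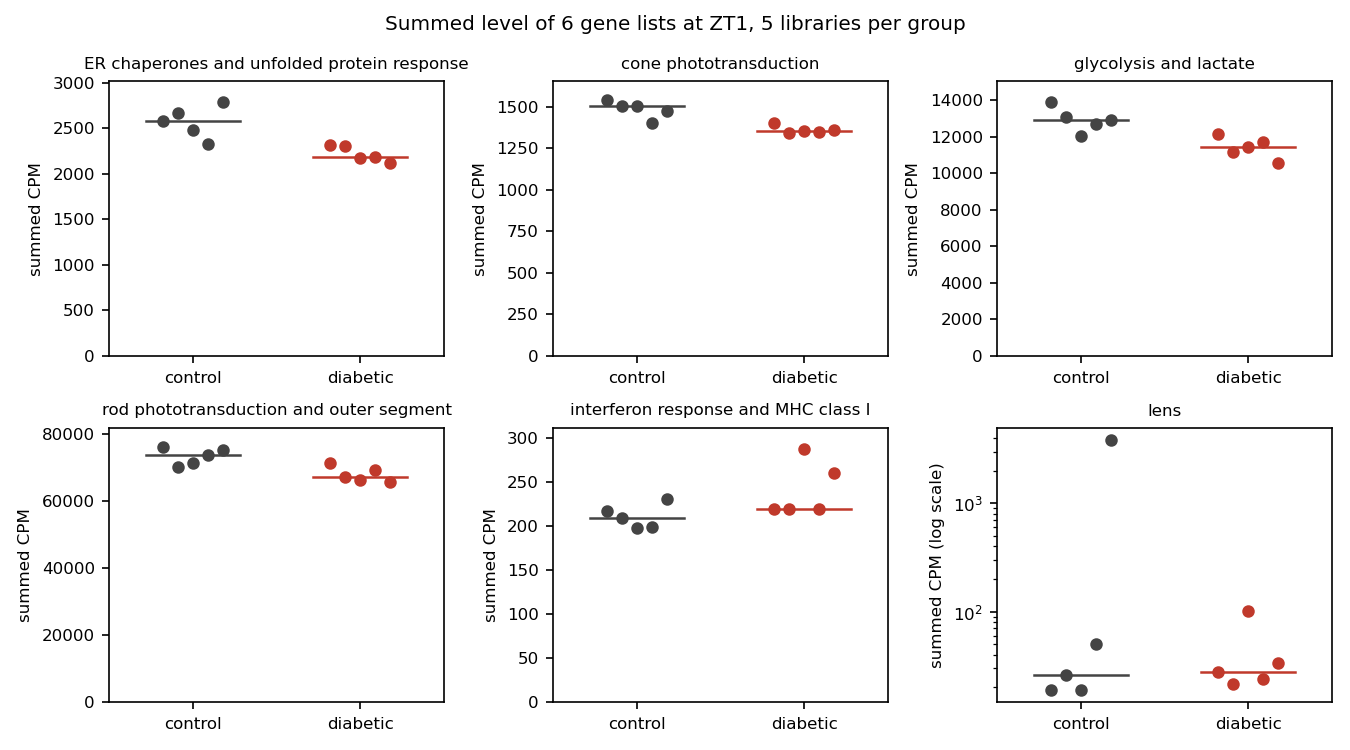
Summed level in CPM (vertical axis, 1 panel per list, the lens panel on a log axis) of 6 gene lists in the 5 control and 5 diabetic ZT1 libraries, each a point, with a bar at the median. ER chaperones and cone genes do not overlap between the groups, and in the lens panel control 6 stands at 3811 CPM.

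Large sets of ribosomal and respiratory genes were below 0 as well, and their counts depended on which library was left out. For all genes the shares were 47.4% below 0 and 2.42% lower at the unadjusted threshold. Of 80 cytosolic ribosomal protein genes 78 were below 0 (median -0.16) and 17 were lower at that threshold. But the count was 2 without control 6, 4 without diabetic 4, 6 without control 1, 9 without control 2 and 10 without diabetic 3. It was 26 without control 3, 29 without diabetic 1 and 32 without control 4. Of 37 nuclear subunits of complex I 34 were below 0 (median -0.11) with 6 at the threshold, and the count was 0 without control 6, 2 without control 1, diabetic 3 or diabetic 5, and 3 without diabetic 2. For complexes III to V the figures were 33 of 35, -0.12 and 3, and the count ran from 0 (without control 1, control 6 or diabetic 4) and 1 (without control 2, diabetic 3 or diabetic 5) to 5 (without control 3), 7 (without diabetic 1) and 9 (without control 4). All 20 heat shock genes were below 0 (median -0.11), and 1 was lower at the threshold. The make-up of the RNA varied between these libraries too. Nuclear long non-coding RNAs summed to 15128.5, 15541, 19478, 17083 and 14696 CPM in control and 13970.1, 17905, 18839, 15958 and 19928 CPM in diabetic libraries, and ribosomal proteins to 5179, 4961, 4367, 4359 and 5753 CPM and to 4804, 4356, 4198, 4206 and 4459 CPM. Control 3, with the most nuclear RNA among the controls, had a low ribosomal sum, and control 6, with the least, had the highest. The part of this in the lower counts was not tested. Control 6 is also the library with lens RNA, and the part of that in these counts was not tested beyond leaving it out.

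Matrix and interferon genes held more members higher than lower. Of 21 collagen and matrix genes 14 were above 0 and 7 below, from Col3a1 at -0.57 (SE 0.33), with a median of 0.11. Of all genes 52.6% were above 0. At the unadjusted threshold 6 were higher and 0 lower, against 3.08% and 2.42% of all genes. Among genes of 1 to 10 CPM the shares were 4.6% and 1.65%. Over the other times, where 15.7% of all genes passed the unadjusted threshold in either direction, 10 of the list were higher and 0 lower. Col5a1, a chain of type V collagen, was at 19.4, 14.8, 14.6, 17.8 and 18.5 CPM in control and 22.0, 22.2, 23.9, 24.0 and 26.2 CPM in diabetic libraries. The groups did not overlap (log2 fold change 0.48, SE 0.16). Col6a1 (0.31) did not overlap either, and Col9a1 (0.46), Col11a1 (0.31), Col6a2 (0.35) and the basement membrane chain Col4a3 (0.35) did. The count was 2 without diabetic 1 or without diabetic 3, and 3 without control 2. The summed level of the list overlapped, at 539 to 789.9 CPM in control and 641 to 728 CPM in diabetic libraries, and control 6 was the highest of all 10.

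Of 22 interferon and MHC class I genes 21 were above 0 and 6 were higher at the unadjusted threshold, against 52.6% and 3.08% of all genes. Among genes of 1 to 10 CPM 4.6% were higher, and 0 genes of the list were over 100 CPM. The median of the list was 0.20, against 0.06 at the other times. Ifit1 (0.71), Rsad2 (0.69) and Usp18 (0.76) are antiviral genes induced by interferon, and Tap1 (0.40) and H2-K1 (0.24) belong to antigen presentation. Most of this came with 1 library. Ifit1 was at 7.90 CPM in diabetic 3 and its log2 fold change was 0.29 without it, and without diabetic 3 the count of the list was 0. The count was 2 without control 3 and 3 without control 4. The summed level was 217, 209, 198, 199 and 231 CPM in control and 219.3, 219.6, 287, 218.9 and 260.4 CPM in diabetic libraries.

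Activin signalling held 1 clear pair of values. Fstl3, a secreted inhibitor of activin, was at 4.62, 4.39, 4.93, 5.09 and 4.73 CPM in control and 7.93, 7.01, 7.02, 6.70 and 7.45 CPM in diabetic libraries. Every diabetic library was above every control library (log2 fold change 0.60, SE 0.18, adjusted p = 0.502 at ZT1), and over the other times it was higher by 0.80 (adjusted p = 1.98e-09). Inhba, the activin A subunit, was at 0.41 (SE 0.15) at ZT1 and 0.05 over the other times. Of 21 genes on the activin and TGF beta list these 2 were the ones higher at the unadjusted threshold. Txnip, the thioredoxin inhibitor that responds to glucose, was at 0.24 (SE 0.16) at ZT1 and 0.35 (adjusted p = 0.00242) over the other times, and Gfap, the filament of reactive glia, at 0.23 (95% confidence interval -0.29 to 0.74).

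Because the study followed the light/dark cycle, clock genes were examined at this time point. Of 20 clock genes 0 passed the unadjusted threshold in either direction, and the median log2 fold change was 0.027. Arntl (Bmal1), the positive limb factor of the clock, was at 116, 130.3, 132, 137 and 134 CPM in control and 123, 145, 141, 132 and 148 CPM in diabetic libraries (log2 fold change 0.08), and the groups overlapped. Over the 20 genes the SE ran from 0.053 to 0.17, and the lowest and highest bounds of their 95% confidence intervals were -0.35 and 0.52. Of 6 genes of clock output in the retina 2 were lower at the unadjusted threshold, Cys1, a cilium protein (-0.37), and the adenylate cyclase Adcy1 (-0.13). The dopamine receptor Drd4 was at -0.21, Plekhb1 at -0.084, Usp2 at 0.038 and Nr2e3 at 0.018.

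The differences at ZT1 were then set beside those of the other 5 times, which share no library with it. A test of the difference between ZT1 and the mean of the others gave 0 genes past the adjusted threshold by edgeR, and 583 (3.05%) at the unadjusted threshold, so no gene is called particular to ZT1. The smallest p-values of this test belonged to Ttc26, an intraflagellar transport protein (0.27 at ZT1 and -0.12 at the other times, unadjusted p = 0.000369), Gm42725 (0.44 and -0.24, unadjusted p = 0.000386) and C78859 (0.50 and -0.09, unadjusted p = 0.000587). The number of genes past the adjusted threshold was 2 at ZT1, and from ZT5 in steps of 4 h it was 4, 1, 0, 32 and 0. At the unadjusted threshold the share was 5.5% at ZT1 and then 6.15%, 4.49%, 4.46%, 8.82% and 4.67%. Over the mean of the 5 other times, with 48 libraries, 616 genes (3.22%) passed the adjusted threshold and 3009 (15.7%) the unadjusted one.

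Leading genes at ZT1 kept their sign in the mean of the other times, though not all did at each single time. Dnah2 was at -0.17 at ZT5 and Slc37a1 at -0.24 at ZT13, for instance, and Hspa5 at 0.04 at ZT9. All 22 genes higher at an unadjusted p of 0.001 or less had a mean log2 fold change above 0 at the other times, and 14 of them (63.6%) were higher there at the unadjusted threshold, against 12.1% of all genes above 0 at ZT1. All 21 lower genes were below 0 at the other times and 14 (66.7%) were lower at the threshold, against 12% of all genes below 0 at ZT1. Both counts of lower genes include the lens crystallin Cryab, whose log2 fold change of -2.40 at ZT1 was 0.039 without control 6, the library with lens RNA. Over all genes above 0 at ZT1 61.2% had the same sign elsewhere, and of those below 0 61.8%. The size was smaller elsewhere, with medians of 0.90 at ZT1 and 0.25 at the other times for the higher genes and -0.33 and -0.11 for the lower ones. The genes were chosen on ZT1, so their values there are a description. The p-values of ZT1 and of the other times also rest on the same estimate of spread per gene. The shares at the unadjusted threshold are therefore not independent of that choice.

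**Figure D5:**
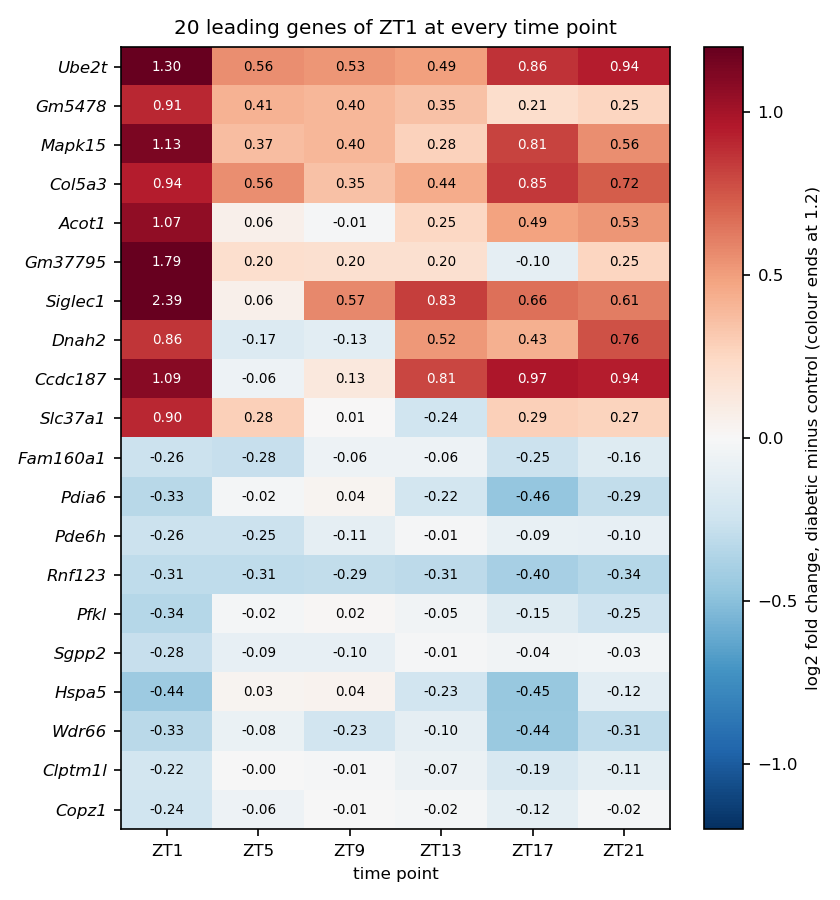
Log2 fold change of diabetic over control retina (colour scale) of the 10 leading genes in each direction at ZT1 (vertical axis) at the 6 times of the cycle (horizontal axis, ZT in h). Ube2t is above 0 and Rnf123 below 0 at every time, and Hspa5 is at -0.45 at ZT17 and near 0 at ZT5 and ZT9.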

How the data were processed

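The deposited values were raw read counts per gene, 1 table for 58 libraries. Per the submitters' processing notes and the study's methods, the authors aligned paired-end reads with STAR (2.7.4a) to GRCm38.p5 with Gencode annotation and made the counts with HTSeq (0.11.1). The strand setting is not given in the sources used here. All columns were mapped to a sample by name, and 0 were left unused. Genes with a median above 4 DESeq2-normalized counts were kept, as in the study. All libraries were fitted in 1 model of 12 groups with edgeR (4.0.16) in R (4.3.3), with TMM factors and the quasi-likelihood test, and p-values were adjusted by the Benjamini-Hochberg method over 19120 genes. DESeq2 (1.42.0), the tool of the study, was an alternative. Levels are CPM. Coordinates and overlaps came from a Gencode annotation of GRCm38, for the 18334 tested symbols that matched 1 gene.

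Named genes were those past the adjusted threshold, the next by p up to 10 per direction, the 5 of largest fold without overlap at p under 0.01, the 3 most different from other times, genes named by the study, and for each of 46 lists its leading and its most abundant member. Other list members given were those past the unadjusted threshold, chosen after their values were seen. The comparison and the lists were chosen with earlier results of these data known. No source states a batch, and replicate libraries differed beyond counting noise. The p-values rest on the spread between libraries within the 12 groups, estimated over all 58 libraries and not from the ZT1 libraries alone. The code was tested on simulated data. Counts of list members under the alternatives were added after seeing the data.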

Additional observations from a re-analysis of the deposited data

Results flagged for a closer look

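In groups of 5 libraries, 1 library can stand apart from the other 4 by more than Dixon's 95% critical value (0.71), and chance gives this in about 1 in 20 groups. Of 262 groups of values 25 did so. Diabetic 5 was high for Gm5478 (11.9 CPM, nearest library 5.86), Col5a3 (11.9 CPM, nearest 5.56) and Ccdc187 (13.7 CPM, nearest 4.79), and low for the bipolar receptor Grm6 (108 CPM, nearest 137). Diabetic 1 was low for Fam160a1 (104 CPM, nearest 117) and Slc37a1 (0.815 CPM, nearest 1.44), and high in the summed levels of fatty acid synthesis (2682 CPM, nearest 2558), of complex I (1577.5 CPM, nearest 1457) and of complexes III to V (3028 CPM, nearest 2643). Diabetic 3 was high for Ifit1 (7.90 CPM, nearest 3.11), for the lens crystallin Cryaa (30.5 CPM, nearest 6.42) and for the lens sum (102 CPM, nearest 33.8). Diabetic 4 was high for Calr (285 CPM, nearest 242) and for transcripts of the mitochondrial genome (18535 CPM, nearest 15272). Diabetic 2 was low for Hist1h2bg (11.9 CPM, nearest 14.2).

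Among control libraries, control 6 was high for Cryaa (1567 CPM, nearest 5.03), Cryab (426 CPM, nearest 21.1), the lens sum (3811 CPM, nearest 50.5), Dnajb11 (55.7 CPM, nearest 48.7), Siglec1 (0.315 CPM, nearest 0.077) and the collagen and matrix sum (789.9 CPM, nearest 607), and low for the activin and TGF beta sum (599.8 CPM, nearest 619). The 6 lens genes tested had a median log2 fold change of -3.13 with control 6 and 0.26 without it. Control 4 was high for Gm37795 (0.451 CPM, nearest 0.163) and low for the bipolar marker Scgn (37.8 CPM, nearest 46.2), and control 3 was low for Hist1h2bb (23.3 CPM, nearest 28.3). No test of the difference between ZT1 and the other times passed its adjusted threshold.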

How the results depend on the processing

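Over all alternatives 1399 values of single genes kept their direction and side of the adjusted threshold, 24 passed it, 11 lost it and 9 reversed. DESeq2 gave 3 genes higher and 3 lower (Gm5478, Mapk15, Pde6h and Pdia6 beside Ube2t and Fam160a1), no filter on low counts gave 0 lower, and only the 10 ZT1 libraries gave 0 higher and 0 lower, with 1051 at the unadjusted threshold. Leaving out 1 library gave 0 to 4 genes higher and 0 to 1 lower. Ube2t and Fam160a1 both lost the call without control 1 or control 2. DESeq2 size factors and another filter kept the counts at 1 and 1. The cause of these shifts was not tested. Leaving out 1 library reversed 4 genes, Arr3 (-0.020 to 0.11, below 0 without diabetic 5), Nr2e3 (-0.046 to 0.084, below 0 without control 1 or diabetic 5), Cryaa (-7.12 to 2.08) and Cryab (-2.67 to 0.039), the last 2 above 0 without control 6. The test of the difference from the other times gave 0 genes in each alternative that held the other times, and could not be run in the ZT1 libraries alone.

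Replicate numbers were shared between the groups for 1 to 4, and the labels do not say what a number stands for. The correlation of deviations was 0.35, 0.11, -0.022 and 0.40 for pairs 1 to 4, and control 3 correlated best with diabetic 2 (0.31), so the pairing was not used. With the replicate block the counts were 1 higher and 1 lower over 12 groups, and 9 higher and 21 lower in the ZT1 libraries alone. These included the ER genes Hspa5 and Calr, the cone genes Opn1mw and Pde6h, the glycolysis genes Hk2, Pfkl, Pgk1 and Slc16a3, and the collagens Col4a3, Col5a1 and Col9a1, none of which edgeR called in these libraries without the block. In the ZT1 libraries alone, control 6 and diabetic 5 share their number with no other library. The blocked fit of these libraries therefore drew its difference from pairs 1 to 4 only, without control 6 and diabetic 5. In that fit Arr3 was at -0.035, Cryaa at 1.65 and Cryab at 0.094, and Cryaa was at 1.30 with the block over 12 groups. List medians moved beyond the replicate spread in 6 cases and stayed within it in 638. Counts of list members moved by over 1.5 times in 45 cases and stayed within that in 142.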

Other observations

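Gene groups tied to other parts of retinal biology were mostly near 0 at ZT1, and no gene named here passed the adjusted threshold of edgeR's test. Insulin signalling and FOXO genes (22 tested), cholesterol synthesis (22), antioxidant genes and metallothioneins (21) and the polyol, hexosamine and glycation genes (13) had 0 members past the unadjusted threshold in either direction, with medians of -0.0027, 0.014, 0.034 and 0.0068. Among vascular genes, the endothelial growth factor apelin (Apln, log2 fold change -0.71), Angpt2 (-0.44) and the VEGF co-receptor Nrp1 (-0.24) were lower at the unadjusted threshold, 3 of 27, with 0 higher. Their mean values at the other times were -0.13, -0.03 and 0.04. Of 10 pericyte and smooth muscle genes, Acta2 (-0.70) and vitronectin (Vtn, -0.23) were lower at that threshold.

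Several single genes of these lists had values without overlap between the groups or far from 0. Lcn2, an iron-binding acute phase protein made by reactive glia, was at 0.77 (SE 0.27) without overlap, and at 0.19 over the other times. Of the 17 reactive gliosis genes tested it was the 1 higher at the unadjusted threshold, S100a6 (-0.83, SE 0.36) was the 1 lower, and the median was 0.055. Acacb, an acetyl-CoA carboxylase, was at 0.50 (SE 0.17), also without overlap, and of the 19 fatty acid synthesis genes (median 0.0056) it was the 1 higher at that threshold and the desaturase Scd2 (-0.16) the 1 lower. Mlxipl (ChREBP), the transcription factor that responds to glucose, was at 1.06 (SE 0.37) with overlap, and Klf10, one of its targets, at 0.27, while 7 of the 11 genes on their list were below 0 (median -0.072), with Pdk4 at -0.59 (SE 0.40). Mcm3, a subunit of the replicative helicase, was at 0.42 (SE 0.18), and the immediate early genes Btg2 and Atf3 at 0.24 and 0.39, while 13 of 22 genes on that list were below 0 (median -0.020), with Fos at -0.48 (SE 0.36). Cirbp, an RNA-binding protein induced by cold, was at 0.17 (SE 0.084), with Rbm3 at 0.14 and Srsf5 at 0.05. The summed level of the E2F and replication list was 842.8 to 865.5 CPM in diabetic and 874.9 to 917.7 CPM in control libraries, but Rnf123 is a member of that list, and 16 of its 24 tested genes were above 0.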
